A study of Mus musculus with 13 samples.

Results

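Amino acid transporter genes were followed through inguinal white adipose tissue (iWAT), a fat depot under the skin of the groin, in mice that differed in sleep and in dietary protein. The 10 genes were taken by name from a table of 54532 genes: Slc3a2, Slc7a5, Slc7a10, Slc7a11, Slc1a5, Slc1a3, Slc38a1, Slc38a2, Slc7a1 and Slc7a2. Each symbol had 1 entry. Total RNA was sequenced from 13 individual mice in 3 groups, after 12 h of fasting in all of them. SF_HPD held 5 mice with sleep fragmentation on a high-protein diet, in which protein made up 50% of the calories, fat 12% and carbohydrate 38%. SF_ConD held 5 mice with sleep fragmentation on normal chow. SC_ConD held 3 mice with normal sleep on normal chow. Allocation was random with matched weights, and strain, sex and age are not stated in the labels. No group combined normal sleep with the high-protein diet, so the diet was compared within sleep-fragmented mice, and SF_HPD against SC_ConD changed sleep and diet together.

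Amino acids cross membranes through carriers of the solute carrier families. Some members of the SLC7 family are called light chains. Those among the 10 genes, Slc7a5, Slc7a10 and Slc7a11, reach the surface only when bound to a heavy chain, the product of Slc3a2. Most light chains exchange an intracellular amino acid for an extracellular one. SLC1 and SLC38 carriers are driven by sodium, and the cationic carriers of SLC7 bring in arginine and lysine. In fat, amino acids feed lipid synthesis and the nutrient-sensing kinase mTORC1, and several of these genes are known targets of ATF4, the transcription factor that responds to amino acid shortage.

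The 250 bases upstream of 2 light-chain genes are shown because one holds a match to an ATF4 element and the other belongs to the most abundant light chain here. The sequences are RefSeq's on GRCm38.p6, written in the direction of transcription. Capitals mark matches to TGATGNAA or its reverse TTNCATCA, the composite element bound by ATF4 with C/EBP proteins. Slc7a11 lies at chr3:50443614-50443863 on the minus strand and Slc7a10 at chr7:35186135-35186384 on the plus strand.
Slc7a11: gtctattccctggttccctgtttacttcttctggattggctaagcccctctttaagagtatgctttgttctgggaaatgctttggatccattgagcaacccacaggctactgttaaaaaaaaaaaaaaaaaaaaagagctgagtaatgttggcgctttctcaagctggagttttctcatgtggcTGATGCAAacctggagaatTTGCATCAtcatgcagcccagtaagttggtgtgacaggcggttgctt
Slc7a10: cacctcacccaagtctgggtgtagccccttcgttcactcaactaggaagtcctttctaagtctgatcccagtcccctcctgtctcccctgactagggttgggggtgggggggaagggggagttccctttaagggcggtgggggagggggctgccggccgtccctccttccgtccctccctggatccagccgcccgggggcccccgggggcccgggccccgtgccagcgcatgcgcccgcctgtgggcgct
The Slc7a11 window held 2 sites in opposite orientations, 66 and 47 bases before the start, and the Slc7a10 window held none. Windows of 300 bases (250 upstream and 50 downstream) were at hand for Slc7a11, Slc7a10, Slc7a1 with 2 windows, Slc1a3, Slc38a2 and Slc3a2. The element was found in 1 of these 7 windows, that of Slc7a11, and in 3.97% of all 32851 windows. A further element, TGACGTCA, which reads the same on both strands, was in 0 of the 7 and in 1.79% of all windows. A match is a description of the letters and does not show binding.

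The libraries differed in tissue content within groups, and in stromal progenitor markers between groups. Recovered reads per library ranged from 14815592 to 18303302. The mean log2(FPKM + 1) of 10 adipocyte markers was 4.46 in SF_HPD 2 and 7.85 to 9.46 in the other 12 libraries, so the fat label fitted the markers poorly in SF_HPD 2, where 6 epithelial markers averaged 7.37. Markers of B cells and lymph nodes, the inguinal fat pad being the seat of a lymph node, averaged 4.87 to 5.91 in SF_HPD 4 and 5 and in SF_ConD 1, 4 and 5, against 0.37 to 1.66 in the other 8. Liver markers averaged 10.1 in SC_ConD 2 and 8.87 in SC_ConD 3, and at most 5.35 elsewhere. Summed over each list, adipocyte markers had 1461 to 34259 FPKM in SF_HPD, 14904 to 43204 in SF_ConD and 14560 to 52445 in SC_ConD. B cell and lymph node markers had 8.50 to 1291, 9.09 to 3129 and 11.3 to 49.8 FPKM in the same order, and liver markers 271 to 4299.7, 2782 to 6007 and 2023 to 20756 FPKM. In these lists 0 markers were at 0 in every library of a group. Stromal progenitor markers summed to 126 to 306 FPKM in SF_HPD, 46.5 to 105.5 in SF_ConD and 133 to 303 in SC_ConD. By this sum SF_ConD lay below both other groups without overlap. Their mean log2(FPKM + 1) was 3.05 to 4.23 in SF_HPD and 2.43 to 3.10 in SF_ConD, with overlap, and 3.17 to 3.60 in SC_ConD. Skeletal muscle markers averaged 10.7 in SF_HPD 4 and 7.41 in SC_ConD 3. SF_HPD 1, SF_HPD 4, SF_ConD 3 and SC_ConD 1 leaned toward long genes (Spearman rho of 0.48 to 0.56 across genes between gene length and the deviation from the mean library). In the others rho ran from -0.44 in SF_ConD 1 and -0.39 in SF_HPD 5 to 0.03 in SF_ConD 4, so some leaned toward short genes. In bulk tissue, fewer cells of a type and less RNA per cell cannot be told apart. The part of these differences in the results below was not tested beyond the values given beside them.

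**Figure D1:**
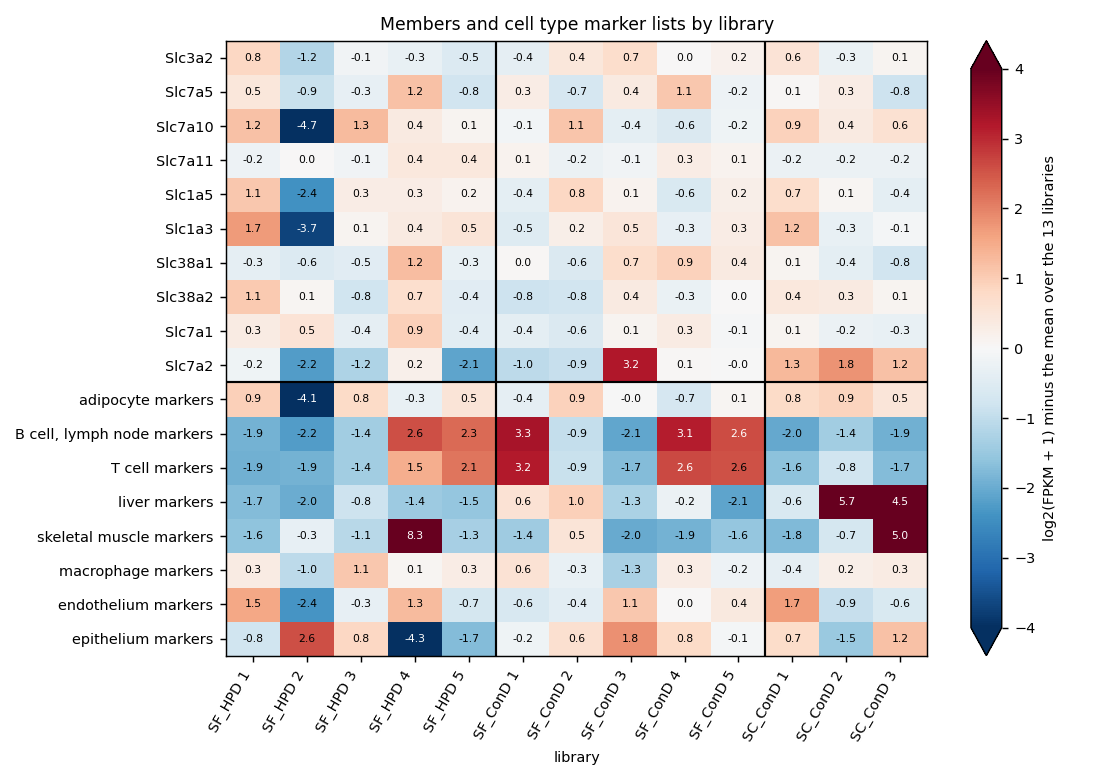
Each cell gives log2(FPKM + 1) in 1 library minus the mean over the 13 libraries, for the 10 transporter genes (upper block) and the mean of 8 marker lists (lower block); colours saturate at 4 and the printed numbers give the difference itself. SF_HPD 2 is low for Slc7a10, Slc1a3, Slc1a5 and the adipocyte markers, and Slc7a2 is high in SF_ConD 3 and in all 3 SC_ConD libraries.

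The transporter repertoire had the same outline in all 3 groups. Levels are FPKM, which divides by gene length, but some libraries still leaned toward long or short genes. The order of the genes is given with that limit. Slc1a5 ranked highest, followed by Slc7a10, Slc3a2 and Slc1a3, then by Slc38a2 and Slc7a2. Slc7a5, Slc38a1 and Slc7a1 averaged 0.444 to 1.60 FPKM in every group, and Slc7a11 ranked last. Many neighbours in this order overlapped in their library values. In SF_HPD, Slc38a2 and Slc7a2 were the 1 pair of neighbours without overlap. In SF_ConD, Slc1a5 stood clear of Slc7a10, Slc3a2 of Slc1a3, and Slc38a2 of Slc7a5. In SC_ConD, Slc1a5, Slc7a10 and Slc3a2 stood clear of one another, Slc38a2 of Slc7a5, and Slc38a1 of Slc7a11.

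**Figure D2:**
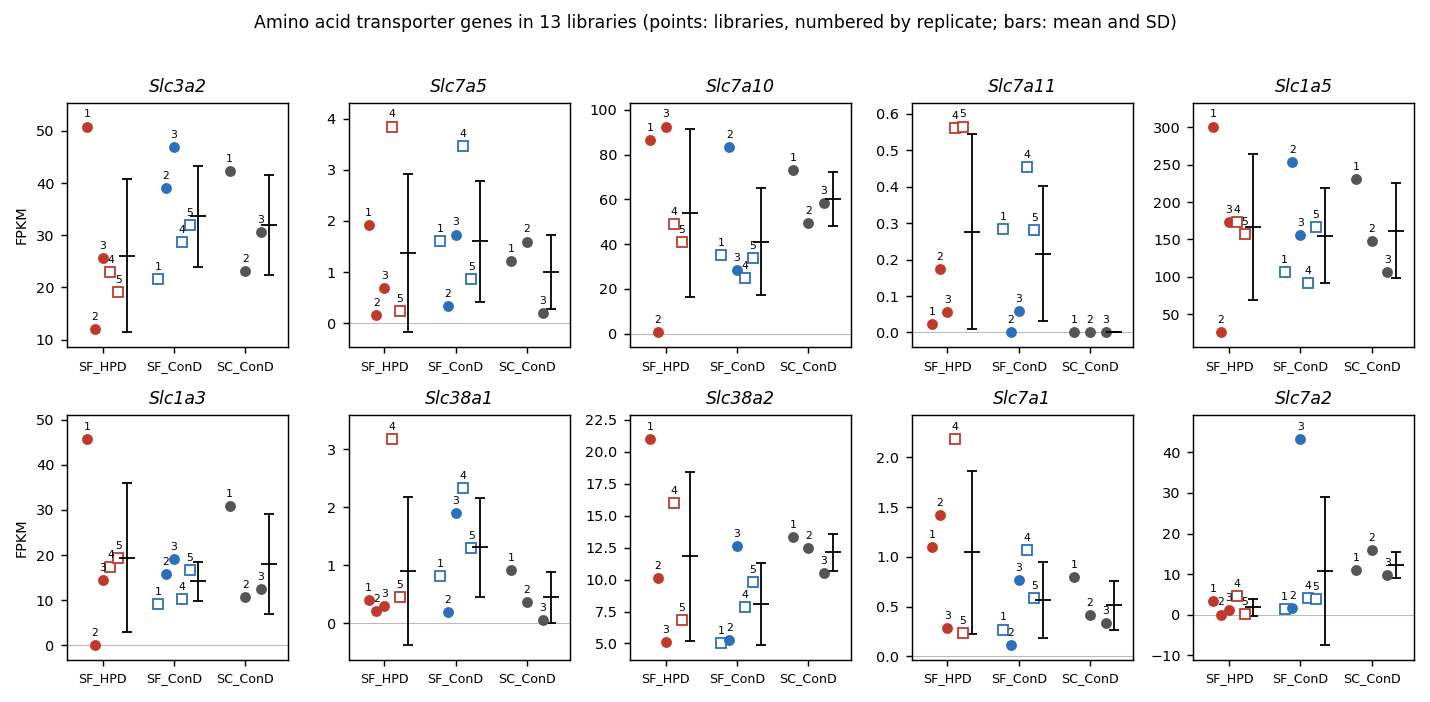
FPKM of each transporter gene by group; points are libraries with their replicate number, open squares are the 5 libraries rich in lymphocyte transcripts, and the bars at the side are mean and SD. Axes differ between genes and not all begin at 0. Slc7a2 lies at 9.89 to 16.0 FPKM in SC_ConD and at no more than 4.56 FPKM in SF_HPD, while the groups overlap for the other 8 genes kept for testing.

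Slc3a2 (ENSMUSG00000010095, chromosome 19, 8706882 to 8723369, minus strand, GRCm38), the shared heavy chain, had 50.9, 12.0, 25.5, 22.9 and 19.2 FPKM in SF_HPD libraries 1 to 5, against 21.7, 39.1, 46.9, 28.7 and 32.0 FPKM in SF_ConD 1 to 5. In SC_ConD 1 to 3 it had 42.3, 23.2 and 30.6 FPKM. The highest value of all, in SF_HPD 1, and the lowest, in SF_HPD 2, both lay in the high-protein group, and the groups overlapped. The mean was 26.1 ± 14.7 FPKM in SF_HPD (SD, n = 5), 33.7 ± 9.67 FPKM in SF_ConD (SD, n = 5) and 32.0 ± 9.62 FPKM in SC_ConD (SD, n = 3).

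Slc7a10 (ENSMUSG00000030495, chromosome 7, 35186385 to 35201114, plus strand) encodes a light chain for small neutral amino acids such as serine, alanine and glycine, and is known as a surface marker of white adipocytes. It had 86.6, 0.4925, 92.5, 49.1 and 41.0 FPKM in SF_HPD 1 to 5, against 34.9, 83.3, 28.4, 24.9 and 33.6 FPKM in SF_ConD 1 to 5. In SC_ConD 1 to 3 it had 73.1, 49.2 and 58.3 FPKM. The value of SF_HPD 2, the library with few adipocyte transcripts, rests on 9 reads. The other 4 SF_HPD libraries lay at or above 41.0 FPKM, a level that 1 of 5 SF_ConD libraries passed. All 3 SC_ConD libraries passed it too. Slc7a10 overlaps Lrp3 on the opposite strand, a gene at a mean of 4.78 FPKM, and no source used here states whether reads were counted by strand.

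Slc7a5 (ENSMUSG00000040010, chromosome 8, 121881150 to 121907694, minus strand), the light chain for leucine and other large neutral amino acids, was low. It had 1.92, 0.156, 0.687, 3.84 and 0.245 FPKM in SF_HPD 1 to 5, against 1.60, 0.343, 1.73, 3.45 and 0.868 FPKM in SF_ConD 1 to 5. In SC_ConD 1 to 3 it had 1.22, 1.60 and 0.19 FPKM. The values rest on 5 to 259 reads, the highest 2 fell in SF_HPD 4 and SF_ConD 4, and each group spanned at least 8.42-fold.

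Slc7a11 (ENSMUSG00000027737, chromosome 3, 49892526 to 50443614, minus strand) exchanges extracellular cystine for glutamate and so supplies cysteine for glutathione. It stayed under 1 FPKM in all 13 libraries and was therefore not among the genes tested. SF_HPD 1 to 5 had 0.0235, 0.174, 0.0572, 0.562 and 0.565 FPKM, from 7 to 135 reads, and SF_ConD 1 to 5 had 0.285, 0, 0.0601, 0.455 and 0.281 FPKM, from 0 to 128 reads. All 3 SC_ConD libraries had 0 reads. The 5 libraries rich in lymphocyte transcripts, all of them from sleep-fragmented mice, held the 5 highest values, 0.281 to 0.565 FPKM, while the other 8 lay at 0 to 0.174 FPKM. Against the level that 3 reads in each SC_ConD library would give, a mean of 0.0183 FPKM, the mean of SF_HPD was at least 15.1-fold higher and that of SF_ConD at least 11.8-fold higher. These bounds cover counting error only. Without a filter on low values, limma over 23002 genes gave differences of log2(FPKM + 1) of 0.06 (SE 0.15, adjusted p = 1) in SF_HPD against SF_ConD, 0.33 (SE 0.17, adjusted p = 1) in SF_HPD against SC_ConD and 0.27 (SE 0.17, adjusted p = 0.859) in SF_ConD against SC_ConD.

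Slc7a10 dominated the light chains that can pair with Slc3a2. Of the summed FPKM of Slc7a5, Slc7a6, Slc7a7, Slc7a8, Slc7a10 and Slc7a11, Slc7a10 held 76.9% to 92.4% in SF_HPD 1, 3, 4 and 5, against 62.5% to 91.0% in SF_ConD and 84.2% to 91.1% in SC_ConD. In SF_HPD 2 it held 5.41%, and Slc7a6, a carrier that exchanges cationic for neutral amino acids, held 77.0%. Slc7a5 held 0.48% to 6.02% in SF_HPD, against 0.38% to 8.67% in SF_ConD and 0.30% to 2.94% in SC_ConD. Slc3a2 was 5.95 to 161 times as high as Slc7a5 by FPKM over the 13 libraries.

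**Figure D3:**
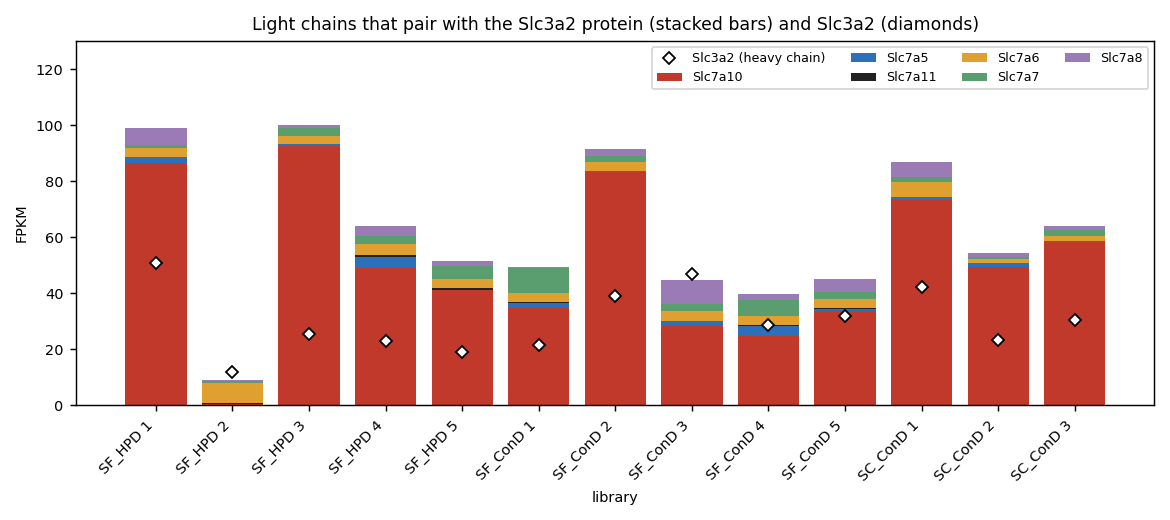
Stacked bars give the FPKM of the 6 light chains in each library and diamonds that of Slc3a2, with SF_HPD at the left, SF_ConD in the middle and SC_ConD at the right. Slc7a10 makes up most of each bar except in SF_HPD 2, whose light chains sum to 9.10 FPKM.

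Slc1a5 (ENSMUSG00000001918, chromosome 7, 16781340 to 16798274, plus strand), a sodium-dependent exchanger of glutamine and other neutral amino acids, was the highest of the 10 genes. It had 301, 25.5, 174, 173 and 157 FPKM in SF_HPD 1 to 5, against 107, 253, 156, 91.3 and 167 FPKM in SF_ConD 1 to 5. In SC_ConD 1 to 3 it had 231, 148 and 106 FPKM. Apart from SF_HPD 2, the SF_HPD libraries lay within or above the range of SF_ConD. The group means differed by less than their SDs: 166 ± 97.7 FPKM in SF_HPD, 155 ± 63.6 FPKM in SF_ConD and 162 ± 63.4 FPKM in SC_ConD (SD, n = 5, 5 and 3).

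Slc1a3 (ENSMUSG00000005360, chromosome 15, 8634124 to 8710764, minus strand), a sodium-driven carrier of glutamate and aspartate best known from astrocytes, had 45.8, 0.0947, 14.5, 17.3 and 19.4 FPKM in SF_HPD 1 to 5. SF_ConD 1 to 5 had 9.08, 15.9, 19.1, 10.3 and 16.7 FPKM. SC_ConD 1 to 3 had 30.9, 10.7 and 12.5 FPKM. The value of SF_HPD 2 rests on 7 reads. The 2 highest values fell in SF_HPD 1 and SC_ConD 1, both among the libraries that lean toward long genes. The Schwann and glial marker list averaged 0.83 to 3.24 over the 13 libraries on the log2(FPKM + 1) scale and was highest in SF_ConD 3.

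Slc38a2 (ENSMUSG00000022462, chromosome 15, 96687392 to 96699730, minus strand) encodes a sodium-coupled carrier of small neutral amino acids that is known to be induced by amino acid shortage. It had 21.0, 10.1, 5.10, 16.0 and 6.84 FPKM in SF_HPD 1 to 5, against 5.001, 5.24, 12.6, 7.88 and 9.80 FPKM in SF_ConD 1 to 5. In SC_ConD 1 to 3 it had 13.3, 12.5 and 10.5 FPKM (mean 12.1 ± 1.44 FPKM, SD, n = 3), a coefficient of variation of 11.9%, the smallest of any of the 10 genes in a group apart from Slc7a11 at 0. The 4 libraries that lean toward long genes had 12.6 to 21.0 FPKM, against 5.001 to 12.5 FPKM in the other 9.

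Slc38a1 (ENSMUSG00000023169, chromosome 15, 96571418 to 96642913, minus strand), a related carrier of glutamine and alanine, had 0.391, 0.208, 0.286, 3.18 and 0.445 FPKM in SF_HPD 1 to 5. SF_ConD 1 to 5 had 0.813, 0.183, 1.90, 2.32 and 1.297 FPKM, and SC_ConD 1 to 3 had 0.919, 0.362 and 0.051 FPKM. SF_HPD 4, rich in lymphocyte and muscle transcripts, held the highest value. The median of the 5 lymphocyte-rich libraries was 1.297 FPKM and that of the other 8 was 0.324 FPKM, with overlap.

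Slc7a1 (ENSMUSG00000041313, chromosome 5, 148327410 to 148399904, minus strand), the widely expressed carrier of arginine and lysine, had 1.10, 1.42, 0.281, 2.19 and 0.236 FPKM in SF_HPD 1 to 5. SF_ConD 1 to 5 had 0.269, 0.116, 0.771, 1.07 and 0.589 FPKM, and SC_ConD 1 to 3 had 0.793, 0.411 and 0.336 FPKM. The 3 highest values were in SF_HPD, and so was the second lowest value, that of SF_HPD 5. The 4 libraries that lean toward long genes had 0.771 to 2.19 FPKM, against 0.116 to 1.42 FPKM in the others.

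Slc7a2 (ENSMUSG00000031596, chromosome 8, 40862396 to 40922308, plus strand), a cationic carrier with a low-affinity form known from liver, had 3.29, 0.0379, 1.05, 4.56 and 0.121 FPKM in SF_HPD 1 to 5. SF_ConD 1 to 5 had 1.34, 1.54, 43.3, 4.03 and 3.82 FPKM, and SC_ConD 1 to 3 had 10.9, 16.0 and 9.89 FPKM. SF_HPD lay below every SC_ConD library, and SF_ConD lay below them too except for SF_ConD 3, the highest of all 13. Liver markers averaged 3.79 in SC_ConD 1 and 3.14 in SF_ConD 3, against 10.1 and 8.87 in SC_ConD 2 and 3. SC_ConD 1 and SF_ConD 3 leaned toward long genes, and the part of either difference in the Slc7a2 values was not tested.

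The diet itself was compared in SF_HPD against SF_ConD, where all mice had fragmented sleep, and no transporter passed the test. In a limma fit of log2(FPKM + 1) to all 13 libraries, 0 of the 9 transporters tested reached an adjusted p under 0.05, as did 0% of all 14421 genes. With an unadjusted p under 0.05 there were 0 of 9, against 1.89% of all genes. Without overlap and lower in SF_HPD there were 0 of 9, against 0.229% of all genes. Limma-voom on the recovered reads also called 0 genes, with 258 at an unadjusted p under 0.05, beside 273 in the fit of FPKM. Without SF_HPD 5 the fit called 1 gene, which was not among the 9 transporters. The median difference of the 9 genes was -0.24, with 2 positive and 7 negative, beside a median of 0.01 over all genes. Without SF_HPD 2 the median was 0.24, with 5 positive and 4 negative. The 9 genes differ in spread: the 95% intervals were 1.295 to 3.99 wide on the log2 scale.

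The fits of single genes in this comparison gave values in both directions. Slc7a2 had the lowest value at -1.36 (95% interval -2.96 to 0.23, adjusted p = 1 in limma). It was -0.63 (SE 0.51, adjusted p = 1) without SF_ConD 3, the library with the highest Slc7a2, and -2.34 (SE 1.13, adjusted p = 1) without the 5 lymphocyte-rich libraries. The latter fit kept only SF_ConD 2 and 3 of SF_ConD, at 1.54 and 43.3 FPKM. Slc3a2 was at -0.46 (interval -1.26 to 0.34, adjusted p = 1), Slc38a1 at -0.37 (-1.21 to 0.46) and Slc7a5 at -0.24 (-1.199 to 0.71). Slc38a2 was at 0.40 (-0.38 to 1.19) and Slc7a1 at 0.33 (-0.32 to 0.97). Slc7a10 was at -0.33 (-2.32 to 1.67), Slc1a3 at -0.24 (-1.92 to 1.44) and Slc1a5 at -0.16 (-1.46 to 1.14). These 3 turned to 0.76, 0.64 and 0.42 without SF_HPD 2, with adjusted p = 0.991 for each in limma, and the Slc7a10 interval is the widest of the 9.

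SF_ConD against SC_ConD asked what sleep fragmentation did on chow, and again no transporter passed. An adjusted p under 0.05 was reached by 0 of 9 transporters and by 0% of all genes in limma. An unadjusted p under 0.05 was reached by 0 of 9, against 5.74% of all genes, and 0 of 9 lay lower without overlap, against 1.92%. Over all genes, 828 had an unadjusted p under 0.05 in limma and 608 in limma-voom, which called 0. Without SC_ConD 1, 194 genes were called, 189 of them lower in SF_ConD, and 0 of the 9 transporters were among them. SC_ConD then held only the liver-rich SC_ConD 2 and 3, in which liver markers averaged 10.1 and 8.87. The median difference of the 9 was -0.08, with 4 positive and 5 negative, beside -0.03 over all genes. Rescaled to TPM, 6 were positive with a median of 0.09, beside an all-gene median that itself moved to 0.16. Slc7a2 was at -1.17 (interval -3.02 to 0.67, adjusted p = 0.98 in limma). It was -1.91 (SE 0.59, unadjusted p of 0.0067 and adjusted p = 0.559 in limma) without SF_ConD 3, and -0.29 (SE 1.13, adjusted p = 1) without the lymphocyte-rich libraries. In the latter fit SF_ConD held only SF_ConD 2 and 3, at 1.54 and 43.3 FPKM. Slc7a10 was at -0.67 (-2.97 to 1.64) and Slc38a2 at -0.59 (-1.50 to 0.32). Slc38a1 was at 0.63 (-0.34 to 1.59) and Slc7a5 at 0.34 (-0.77 to 1.44). Slc3a2 at 0.07 (-0.86 to 0.99), Slc7a1 at 0.02 (-0.72 to 0.77), Slc1a5 at -0.08 (-1.58 to 1.42) and Slc1a3 at -0.22 (-2.16 to 1.72) had values near 0 with wide intervals.

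SF_HPD against SC_ConD set sleep fragmentation with the high-protein diet against normal sleep on chow. It shares the SF_HPD libraries with the first comparison and the SC_ConD libraries with the second. An adjusted p under 0.05 was reached by 0 of 9 transporters and 0% of all genes in limma. An unadjusted p under 0.05 was reached by 1 of 9, Slc7a2, against 3.68% of all genes, and 1 of 9, again Slc7a2, lay lower without overlap, against 0.853%. Over all genes, 531 had an unadjusted p under 0.05 in limma and 458 in limma-voom, which called 0. Without SC_ConD 1, 196 genes were called, 193 of them lower in SF_HPD, and 0 of the 9 transporters were among them. Here too SC_ConD held only the liver-rich SC_ConD 2 and 3. Slc7a2 averaged 1.81 ± 2.02 FPKM in SF_HPD (SD, n = 5) and 12.3 ± 3.25 FPKM in SC_ConD (SD, n = 3). Its difference was -2.54 on the log2(FPKM + 1) scale (SE 0.85, interval -4.38 to -0.69), with an unadjusted p of 0.0108 and an adjusted p of 0.792 in limma, and it was lower in 5 of 5 SF_HPD libraries. It had rank 196 among 14421 genes by p.

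Slc7a2 stayed below 0 in every alternative, between -3.77 and -2.26, with adjusted p from 0.00911 to 1 in limma. The call came from an alternative chosen after seeing the data, which left out the 4 libraries that lean toward long genes. There Slc7a2 was at -3.35 (SE 0.48, adjusted p = 0.00911 in limma). That fit left out SF_HPD 1 and 4, the SF_HPD libraries with the highest Slc7a2 (3.29 and 4.56 FPKM). It kept SF_HPD 2, 3 and 5, at 0.0379, 1.05 and 0.121 FPKM. SC_ConD then held only the 2 liver-rich libraries, and 172 genes were called, 169 of them lower in SF_HPD. Without those 2 liver-rich libraries, against SC_ConD 1 alone, Slc7a2 was at -2.41 (SE 1.39, adjusted p = 0.894 in limma), a fit that assumes this single library to vary like those of the other groups.

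The other transporters in SF_HPD against SC_ConD had a spread of values around 0. Slc7a10 was at -0.99 (interval -3.30 to 1.31, adjusted p = 1 in limma), Slc1a3 at -0.46 (-2.40 to 1.48) and Slc3a2 at -0.40 (-1.32 to 0.52). Slc1a5 was at -0.24 (-1.74 to 1.26) and Slc38a2 at -0.19 (-1.10 to 0.72). Slc7a1 was at 0.35 (-0.40 to 1.10), Slc38a1 at 0.25 (-0.71 to 1.22) and Slc7a5 at 0.10 (-1.01 to 1.1996). The median of the 9 was -0.24, with 3 positive and 6 negative, beside 0.02 over all genes. Without SF_HPD 2 it was 0.27, with 6 positive and 3 negative. Under TPM it was 0.02, with 5 positive, beside an all-gene median of 0.25.

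**Figure D4:**
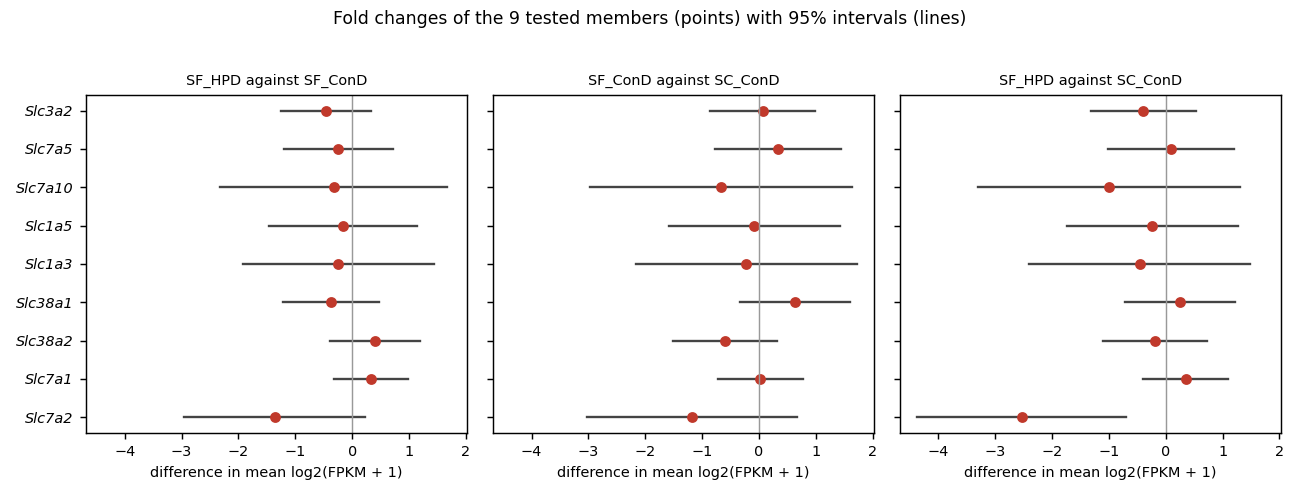
Points give the difference in mean log2(FPKM + 1) between the groups named above each panel and lines the 95% interval, for the 9 transporters tested. The interval of Slc7a2 in SF_HPD against SC_ConD, -4.38 to -0.69, is the one that leaves out 0.

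Some pairs of the 10 genes varied together over the 13 libraries. They are described here by Spearman rho without a test, since the libraries share the differences in tissue content given above. Slc1a5 went with Slc1a3 (rho 0.77) and Slc7a10 (rho 0.76), the genes low in SF_HPD 2, while Slc7a10 and Slc1a3 had a rho of 0.43. Slc7a5 went with Slc38a1 (rho 0.77) and Slc38a2 with Slc7a1 (rho 0.73). Slc7a11 and Slc7a10 had the lowest rho, -0.59. Among about 6072 abundant protein-coding genes, the 3 most like Slc7a10 were Htra3, Ptger3 and Fgfrl1 (rho 0.96, 0.96 and 0.95). Those most like Slc1a3 were Met, Cnst and Pde3b (rho 0.98, 0.97 and 0.97), and those most like Slc1a5 were C030006K11Rik, Tusc5 and Apol6 (rho 0.96, 0.95 and 0.94). Slc38a2 went with Arhgef12 and Atp2a2 (rho 0.97 and 0.96), and Slc7a1 with Lims1, Flna and Ube4a (rho 0.95, 0.92 and 0.91). Slc38a1 went with Prkd2, Trim12c and Rnf145 (rho 0.95, 0.92 and 0.91), and Slc7a5 with Wdr46, Atp2a3 and Prkacb (rho 0.91, 0.90 and 0.90). Slc3a2 went with Ppp2r1b, Cyp2d22 and Osbpl11 (rho 0.92, 0.91 and 0.91), Slc7a2 with Bhlhe40, Syvn1 and Cpsf3 (rho 0.92, 0.90 and 0.89), and Slc7a11 with Peli1, Smap2 and Actr2 (rho 0.87, 0.86 and 0.85).

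Further amino acid transporters were measured from a list of 30 genes, of which 18 were kept and 0 were called in any comparison. An unadjusted p under 0.05 in limma was reached by 0 in SF_HPD against SF_ConD, 3 in SF_ConD against SC_ConD and 2 in SF_HPD against SC_ConD, all lower in the sleep-fragmented mice. Over all genes tested the shares at this p were 1.89%, 5.74% and 3.68% in these comparisons. The median difference of the 18 was 0.13 in SF_HPD against SF_ConD, with 13 positive and 5 negative, -0.12 in SF_ConD against SC_ConD, and -0.08 in SF_HPD against SC_ConD. Over all genes the medians were 0.01, -0.03 and 0.02 in the same order, with 51.9% positive in SF_HPD against SF_ConD. The 18 were not refitted without SF_HPD 2. Slc36a2, a proton-coupled carrier of glycine, proline and alanine known as a surface marker of brown and beige adipocytes, was the highest, at 70.1 ± 64.5 FPKM in SF_HPD, 107 ± 61.3 FPKM in SF_ConD and 81.9 ± 23.9 FPKM in SC_ConD (SD, n = 5, 5 and 3). It had 1.49 FPKM in SF_HPD 2, and its difference in SF_HPD against SF_ConD was -1.40 (SE 0.89, adjusted p = 1 in limma). Slc16a10, a carrier of aromatic amino acids, was at 0.78 in the same comparison (SE 0.41, adjusted p = 1). It averaged 4.61 ± 2.93 FPKM in SF_HPD and 2.03 ± 1.24 FPKM in SF_ConD (SD, n = 5 each).

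Against SC_ConD, the differences of Slc38a3 and Slc38a4 were -2.50 and -1.80 in SF_HPD and -2.59 and -1.85 in SF_ConD (adjusted p of 0.696 and 1, and of 0.716 and 0.861, in limma). Slc38a3, a glutamine carrier of liver, kidney and brain, had 0.0382 to 4.12 FPKM in SF_HPD and 0.0659 to 1.13 FPKM in SF_ConD, against 0.484, 30.4 and 14.2 FPKM in SC_ConD 1 to 3. Slc38a4, likewise known from liver, had 0.271 to 6.73 FPKM in SF_HPD and 0.2698 to 1.74 FPKM in SF_ConD, against 0.71, 19.2 and 9.12 FPKM in SC_ConD 1 to 3. The highest 2 values of each gene were those of the liver-rich libraries, and the third, 4.12 FPKM for Slc38a3 and 6.73 FPKM for Slc38a4, was that of SF_HPD 4, where liver markers averaged 2.94. Skeletal muscle markers averaged 10.7 in SF_HPD 4 and 7.41 in SC_ConD 3, against 1.72 in SC_ConD 2. The part of liver or muscle transcripts in these differences was not tested. Slc1a4, a carrier of alanine, serine and cysteine, had 0.2396 to 0.576 FPKM in SF_ConD and 0.874 to 1.31 FPKM in SC_ConD, without overlap (difference -0.58, SE 0.23, adjusted p = 0.861 in limma), and its highest value was in SC_ConD 1, which was not rich in liver transcripts.

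**Figure D5:**
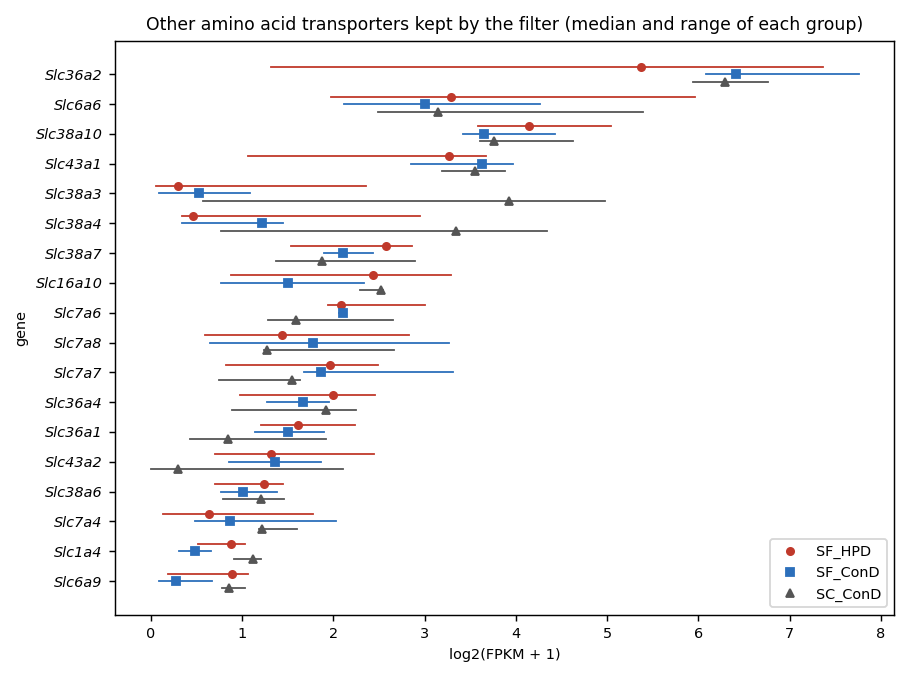
Points give the median and lines the range of log2(FPKM + 1) in each group for the 18 further amino acid transporters kept, ordered by mean level. Slc36a2 is the highest, and Slc38a3 and Slc38a4 reach high values in SC_ConD, where 2 of 3 libraries were rich in liver transcripts.

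Genes of amino acid sensing and use were described in 4 more lists, and 0 of them were called in any comparison. Of 33 genes of amino acid sensing upstream of mTORC1, all tested, the median difference in SF_HPD against SF_ConD was 0.10, with 25 positive and 8 negative. Over all genes this median was 0.01, with 51.9% positive. The list was not refitted without SF_HPD 2. An unadjusted p under 0.05 in limma was reached by 0 of the 33 in SF_HPD against SF_ConD, beside 1.89% of all genes. It was reached by 1, Castor1, in each comparison against SC_ConD, where all genes had shares of 5.74% (SF_ConD) and 3.68% (SF_HPD). Castor1, an arginine sensor of that pathway, had 6.66 to 11.5 FPKM in SF_ConD, against 11.8 to 23.7 FPKM in SC_ConD, without overlap (difference -0.90, SE 0.32, adjusted p = 0.791 in limma). In SF_HPD it had 6.75 to 14.9 FPKM, overlapping both. Sesn1, of the sestrin family that includes a leucine sensor, averaged 10.5 ± 3.29 FPKM in SF_HPD and 18.1 ± 8.56 FPKM in SF_ConD (SD, n = 5 each; difference -0.67, SE 0.34, adjusted p = 1).

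Of 21 genes of the amino acid stress response under GCN2 and ATF4, 19 were tested. Their median difference was -0.02 in SF_HPD against SF_ConD, -0.64 in SF_ConD against SC_ConD and -0.31 in SF_HPD against SC_ConD, and 0, 1 and 2 genes had an unadjusted p under 0.05 in limma, all lower, beside 1.89%, 5.74% and 3.68% of all genes. In SF_HPD against SF_ConD, 8 were positive and 11 negative. Stc2 had the smallest p there, with a difference of -1.19 (SE 0.57, unadjusted p of 0.0568 in limma). Psat1 at 0.54 (SE 0.43) and Chac1 at 0.81 (SE 0.69) followed. Asns, which makes asparagine and is a classical ATF4 target, averaged 39.2 ± 21.8 FPKM in SF_HPD, 26.0 ± 12.0 FPKM in SF_ConD and 40.1 ± 10.9 FPKM in SC_ConD (SD, n = 5, 5 and 3). Trib3, an ATF4 target and kinase-like protein, had 0 to 7.38 FPKM in SF_HPD and 6.59 to 13.8 FPKM in SC_ConD (difference -1.36, SE 0.55, adjusted p = 1 in limma). Cth, which makes cysteine from cystathionine, had 0.795 to 2.34 FPKM in SF_HPD and 2.34 to 11.3 FPKM in SC_ConD, with SF_HPD 3 and SC_ConD 1 touching at 2.34 FPKM (difference -1.23, SE 0.42, adjusted p = 0.839). Its highest value was in the liver-rich SC_ConD 2.

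Of 15 genes of glutathione and glutamine handling, 14 were tested, with a median of -0.04 in SF_HPD against SF_ConD. There Ggt1 was the 1 gene with an unadjusted p under 0.05 in limma, beside 1.89% of all genes. The median was -0.05 in SF_ConD against SC_ConD, with 0 genes at this p, beside 5.74% of all genes. In SF_HPD against SC_ConD it was -0.24, with 1 gene at this p, again Ggt1, beside 3.68% of all genes. Ggt1, which cleaves extracellular glutathione, had 1.17, 0.576, 4.23, 0.459 and 0.207 FPKM in SF_HPD 1 to 5, against 2.69, 2.46, 6.73, 4.94 and 3.14 FPKM in SF_ConD 1 to 5. SF_HPD 3 was the library that overlapped SF_ConD, and the difference was -1.25 (SE 0.39, unadjusted p of 0.00663 and adjusted p = 1 in limma). Of 12 genes of arginine metabolism, 10 were tested, with medians of 0.03, -0.67 and -0.43 in SF_HPD against SF_ConD, SF_ConD against SC_ConD and SF_HPD against SC_ConD. An unadjusted p under 0.05 was reached by 0, 2 and 3 of them, all lower, beside 1.89%, 5.74% and 3.68% of all genes. Arg1, the liver arginase, had 0.467 to 3.07 FPKM in SF_HPD and 0.6247 to 7.41 FPKM in SF_ConD, against 2.32, 191 and 80.1 FPKM in SC_ConD 1 to 3. Ass1 and Gamt, of arginine and creatine synthesis, were likewise highest in the liver-rich SC_ConD 2 and 3, at 78.0 and 33.8 FPKM for Ass1 and 27.0 and 11.3 FPKM for Gamt, against 1.72 and 3.33 FPKM in SC_ConD 1. The Arg1 difference in SF_HPD against SC_ConD was -4.05 (SE 1.01, adjusted p = 0.394 in limma). Nos2, the inducible nitric oxide synthase that also uses arginine, had 0.237 to 1.80 FPKM in SF_ConD and 1.83 to 2.25 FPKM in SC_ConD, without overlap (difference -1.02, SE 0.42, adjusted p = 0.861).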

How the data were processed

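Total RNA of inguinal fat from 13 individual mice was analysed from the table of FPKM values per gene that the authors deposited. CASAVA, HISAT2 2.0.5, featureCounts 1.5.0-p3 and the build mm8 are named per the submitters' processing notes. The coordinates in the table matched GRCm38: of 54532 gene identifiers, 54409 were in the GENCODE annotation used here, 53499 with the same start and end, all 10 transporters included. No source used here states the strand setting or the divisor of FPKM. FPKM sums differed 5.03-fold between libraries, so rescaling to TPM was tried. FPKM multiplied by gene length came out as whole multiples of 1 read for 99.99% of values (tolerance 0.05), which gave the reads quoted.

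Deposited FPKM values were tested as log2(FPKM + 1). The differences given are therefore smaller than true fold changes for low genes. Genes with at least 1 FPKM in at least 3 libraries (14421) entered limma 3.58.1 in R 4.3.3, with group means over all 13 libraries, trend and robust eBayes, and two-sided p-values adjusted by Benjamini and Hochberg's method over the genes kept, at 0.05. The deposited table gives no raw counts, so limma-voom on recovered reads was an alternative. All 10 transporters are named in every comparison. Of each of 5 related lists, at most 3 genes with the smallest p are named per comparison, with a few others chosen after their values were seen, and for each transporter the 3 genes with the highest rho among protein-coding genes of at least 5 FPKM on average and above 0 in all libraries. A gene that this rule names is not reported here. The genes and lists were chosen with earlier results of these data known.

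No pair of libraries agreed within sampling noise (lowest chi-square per degree of freedom 71.0). Same-numbered SF_HPD and SC_ConD libraries deviated together from their group means (correlations 0.711, 0.333 and 0.191), while the other comparisons had correlations of both signs. SF_HPD 1 and SC_ConD 1 both leaned toward long genes, and SF_HPD 3 had a higher correlation with another SC_ConD library than with SC_ConD 3. The labels name no source for a pairing. Alternatives covered the pseudocount, 2 filters, 3 scalings, the eBayes options, limma-voom, the replicate block and leaving out libraries.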

Additional observations from a re-analysis of the deposited data

Results flagged for a closer look

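Values of single libraries were compared with the rest of their group for the 10 transporters in SF_HPD and SF_ConD, 20 groups of 5 libraries in all. A library was noted where its gap to the nearest other value, divided by the range of the group, passed Dixon's critical value of 0.71. Chance passes this value in about 1 of 20 groups if the values are normally distributed. The rule was applied to FPKM and not to log2(FPKM + 1), so this rate may not hold, and low values are less easily noted. Slc38a1 was at 3.18 FPKM in SF_HPD 4, with the other 4 SF_HPD libraries at 0.208 to 0.445 FPKM. That library had a mean log2(FPKM + 1) of 10.7 for skeletal muscle markers and 5.18 for B cell and lymph node markers. SF_HPD 5, with 4.87 for the B cell and lymph node list, had 0.445 FPKM.

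Slc7a10 was at 83.3 FPKM in SF_ConD 2, with the other 4 SF_ConD libraries at 24.9 to 34.9 FPKM. Adipocyte markers averaged 9.43 in SF_ConD 2, against 7.85 to 8.596 in those 4, and Slc1a5 was highest of its group there too, at 253 FPKM. Slc7a2 was at 43.3 FPKM in SF_ConD 3, with the other 4 SF_ConD libraries at 1.34 to 4.03 FPKM. SF_ConD 3 had the highest mean of Schwann and glial markers of the 13 libraries (3.24) and was the 1 SF_ConD library that leaned toward long genes (rho 0.49). The part of these differences in tissue content in the 3 values was not tested.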

How the results depend on the processing

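The 9 tested transporters in 3 comparisons gave 27 differences, each recomputed under up to 14 alternatives and with each library left out. Of 369 values from the alternatives, 332 kept their direction and their side of the threshold, 36 changed sign and 1 passed the threshold. Sign changes concern values whose intervals include 0, and 12 of the 27 differences never changed sign. The cause was not tested. Transporters under the mean of 5 FPKM (Slc7a5, Slc38a1 and Slc7a1) have no value under that stricter filter. Depth limits the low genes: Slc7a11, Slc7a5 and Slc7a2 rest on fewer than 10 reads in at least 1 library. So do Slc7a10 and Slc1a3 in the adipocyte-poor SF_HPD 2, at 9 and 7 reads. SC_ConD held 3 mice, which limits both comparisons with it.

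In SF_HPD against SF_ConD, leaving out the adipocyte-poor SF_HPD 2 and the muscle-rich SF_HPD 4 gave Slc1a5 0.47, Slc7a10 0.88, Slc1a3 0.74 and Slc7a1 -0.032, and quantile scaling gave Slc1a5 0.029. In SF_ConD against SC_ConD, TPM gave Slc1a5 0.16 and Slc1a3 0.00014, and quantile scaling gave Slc1a5 0.14 and Slc7a1 -0.23. There a pseudocount of 0.1 gave Slc7a1 -0.055, and limma-voom gave Slc1a5 0.012 and Slc7a1 -0.10. Without the lymphocyte-rich libraries, with only SF_ConD 2 and 3 left in SF_ConD, Slc1a5 was 0.37, Slc1a3 0.11 and Slc7a1 -0.094. Without the liver-rich ones Slc3a2 was -0.37 and Slc7a1 -0.23. In SF_HPD against SC_ConD, TPM gave Slc1a5 0.023 and Slc38a2 0.061, and quantile scaling gave Slc1a5 0.17. Without the lymphocyte-rich libraries Slc7a5 was -0.089 and Slc38a1 -0.12, and without the liver-rich ones -0.13 and -0.20. Without SF_HPD 2 and 4 the values were Slc7a5 -0.053, Slc1a5 0.39, Slc38a1 -0.029, Slc7a10 0.21, Slc1a3 0.52 and Slc7a1 -0.0084. TPM moved the median of all genes to 0.05, 0.25 and 0.16 in SF_HPD against SF_ConD, SF_HPD against SC_ConD and SF_ConD against SC_ConD.

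With the replicate number as a block (the replicate block, a paired fit), 0 genes were called in each comparison and no call changed. Slc7a2 was then at -2.51 in SF_HPD against SC_ConD, Slc7a5 at -0.085 and Slc38a1 at -0.048, and Slc7a1 was at -0.078 in SF_ConD against SC_ConD.

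An alternative chosen after seeing the data left out the 4 libraries that lean toward long genes. It called 162 genes in SF_ConD against SC_ConD and 172 in SF_HPD against SC_ConD. It left SC_ConD with the 2 liver-rich libraries and SF_HPD with SF_HPD 2, 3 and 5. It put Slc1a5 at 0.19 and Slc1a3 at 0.11 in SF_ConD against SC_ConD, and Slc7a5 at -0.39 and Slc7a2 at -3.35 in SF_HPD against SC_ConD, the last with an adjusted p of 0.00911 in limma. The length trend as a covariate, also chosen after seeing the data, changed no sign among the transporters and called 0 genes.

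Leaving out 1 library at a time gave 0 to 1 called genes in SF_HPD against SF_ConD (1 without SF_HPD 5), 0 to 196 in SF_HPD against SC_ConD (196 without SC_ConD 1 and 1 without SF_HPD 5) and 0 to 194 in SF_ConD against SC_ConD (194 without SC_ConD 1). Without SC_ConD 1, its group held only the liver-rich SC_ConD 2 and 3. The differences that changed sign ranged as follows. In SF_HPD against SF_ConD they ran from -0.46 to 0.42 for Slc1a5, -0.73 to 0.76 for Slc7a10 and -0.72 to 0.64 for Slc1a3. In SF_HPD against SC_ConD they ran from -0.24 to 0.32 for Slc7a5, -0.54 to 0.34 for Slc1a5, -0.075 to 0.48 for Slc38a1, -0.42 to 0.039 for Slc38a2, -1.40 to 0.092 for Slc7a10 and -0.94 to 0.42 for Slc1a3. In SF_ConD against SC_ConD they ran from -0.14 to 0.28 for Slc3a2, -0.34 to 0.21 for Slc1a5, -0.49 to 0.23 for Slc1a3 and -0.087 to 0.15 for Slc7a1.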
